A study of Homo sapiens with 8 samples.

Results

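The 115 microRNA-named loci and microRNA host genes described here are rows of 1 gene table made from human podocytes. A row belonged to them when one of its gene names started with MIR and a digit or with LET, or was a microRNA host gene name that starts with MIR and ends with HG, and when its expression value was above 0 in both groups. The members were thus chosen by their names and by pooled values above 0, and not by the direction or size of a change. Of the 29004 loci in the table, 1824 had such a name. Among these, 115 were above 0 in both groups, 22 were above 0 only in LATS2 OE podocytes, 30 only in untreated podocytes, and 1657 were listed at 0 in both. The name rule also took in LETM1, LETM2 and LETMD1, which are protein-coding genes of mitochondrial proteins and hold no let-7 microRNA. The remaining 112 rows fell into 21 with a host gene name, 17 in which a microRNA shared the row with another named gene, and 74 that had only microRNA names.

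The cells were AB8/13, an immortalized human podocyte line. Podocytes are the epithelial cells that form the outer layer of the kidney's blood filter. One stable line carried a lentiviral construct from which wild-type LATS2, the kinase that phosphorylates YAP in the Hippo pathway, was switched on by doxycycline. LATS2 OE stands for 4 samples that received 125 ng/mL doxycycline for 8 h. Untreated stands for 4 samples of the same line without the drug, so an effect of doxycycline and an effect of LATS2 cannot be told apart, and the sources do not say whether the 4 samples of a group were separate cultures. Expression was deposited as 1 pooled value per group in FPKM (fragments per kilobase of transcript, scaled to the number of mapped fragments), with no value per sample. The ratios below therefore have no replicate check, no SD and no test, and the depth behind each value is unknown. The comparison asks which of these loci differed between podocytes with induced LATS2 and podocytes without it.

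MicroRNAs are short RNAs of the cytoplasm that repress messenger RNAs by pairing mainly through their seed, bases 2 to 8. They are cut from long primary transcripts, often polyadenylated non-coding host genes or introns of messenger RNAs, by the nuclear enzyme Drosha with its partner DGCR8, and the exported hairpin is trimmed by Dicer and loaded on an Argonaute protein. The libraries were made from poly(A)-selected RNA, so the values describe host and primary transcripts or fragments that map to a hairpin, not mature microRNAs. In podocytes, loss of Dicer or Drosha in mice is known to lead to glomerular disease, and members of the miR-30 family are abundant there.

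The mature sequences of the microRNAs on which the comparison turns are shown first, from RefSeq (build GRCh38.p14), with the seed in capitals. A mature sequence was found for 108 of the 116 microRNA names in the rows. The first set shares the let-7 seed and lies in the intervals of rows whose ratios differed widely.
let-7a: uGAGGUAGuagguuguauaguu
let-7b: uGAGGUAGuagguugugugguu
let-7c: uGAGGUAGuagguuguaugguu
let-7d: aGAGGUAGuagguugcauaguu
let-7e: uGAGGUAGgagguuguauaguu

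The next set holds 3 other seeds that occur in more than 1 row, the miR-181 seed, the miR-17 seed and the miR-25 seed.
miR-181a: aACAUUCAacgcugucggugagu
miR-181b: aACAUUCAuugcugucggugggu
miR-17: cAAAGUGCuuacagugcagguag
miR-20a: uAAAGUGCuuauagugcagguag
miR-106b: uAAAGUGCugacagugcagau
miR-92a: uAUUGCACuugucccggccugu
miR-25: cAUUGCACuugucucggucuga

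The last set belongs to the rows with the widest settled ratios and to MIR210HG and MIR137HG, host genes past 2-fold. The MIR137HG row also holds miR-2682, which has other seeds and is not shown. miR-196a carries AGGUAGU, which is the let-7 seed shifted by 1 base.
miR-4674: cUGGGCUCgggacgcgcggcu
miR-197: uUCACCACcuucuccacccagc
miR-210: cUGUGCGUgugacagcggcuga
miR-137: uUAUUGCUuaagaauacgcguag
miR-196a: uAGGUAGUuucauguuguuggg
miR-4421: aCCUGUCUguggaaaggagcua
miR-6500: aCACUUGUugggaugaccugc

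LATS2 itself was 20.1-fold higher in LATS2 OE (log2 ratio 4.33), in the direction of the labels. Of 12 podocyte genes on a marker list, SYNPO, PODXL, CD2AP, ACTN4 and KIRREL were at 1 FPKM or more in both groups. The slit diaphragm gene NPHS1 was at 0.00616 FPKM in LATS2 OE, against 0.00875 FPKM in untreated, so this defining marker of mature podocytes was near 0. WT1 was at 0.412 FPKM in LATS2 OE, against 0.413 FPKM in untreated. Of 11 markers of endothelial, blood, tubular and mesangial cells, CD68, AQP1 and PDGFRB were at 1 FPKM or more in both groups. In many cells of the table the decimal point had been displaced. The ratio of the groups could be recovered for all 115 loci with the table's log2 column as the key to the decimal places, while the level was settled for 49 of them and remained known only up to a factor of 10 or 100 for 66. For such a locus either the possible readings or only the ratio is given, and the same shift applies to both groups. A locus given without FPKM may thus have an open level.

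Of the 115 loci, 13 were at least 2-fold higher in LATS2 OE and 11 at least 2-fold lower. Over all 20626 loci with a ratio, 3.90% were at least 2-fold higher and 2.94% at least 2-fold lower. In either direction this came to 24 of the 115 (20.9%), against 6.85% of all loci. The median log2 ratio was 0.05 for the 115 loci and 0.01 for all loci, so the high and low rows were about balanced. The median size of the log2 ratio, without its sign, was 0.35 for the 115 loci and 0.13 for all loci, and 73 of the 115 stayed within 1.5-fold.

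The share past 2-fold depended on the level and on the kind of row. Of the 71 loci that reached 1 FPKM in both groups, 15 were past 2-fold (21.1%), against 0.893% of all loci at that level. The same FPKM rests on fewer fragments in a shorter feature, so loci of equal level are not matched in counting depth. The part of feature length in these shares was not tested. Among the 11 loci of at least 1 FPKM in 1 group only, 6 were past 2-fold, against 14.2% of all such loci. Among the 33 loci below 1 FPKM in both groups, 3 were past 2-fold (9.09%), against 15.5% of all such loci. At 1 FPKM or more in both groups, the 15 loci past 2-fold were 12 of 32 rows with only microRNA names that had the interval of a protein-coding gene, and 3 of 10 host genes. None of the 15 other rows with only microRNA names, of the 11 rows shared with another gene name and of the 3 LET genes passed 2-fold at that level. For comparison, 18 of 105 snoRNA-named loci (17.1%) and none of 78 LINC-named long non-coding RNA loci were past 2-fold at that level.

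**Figure D1:**
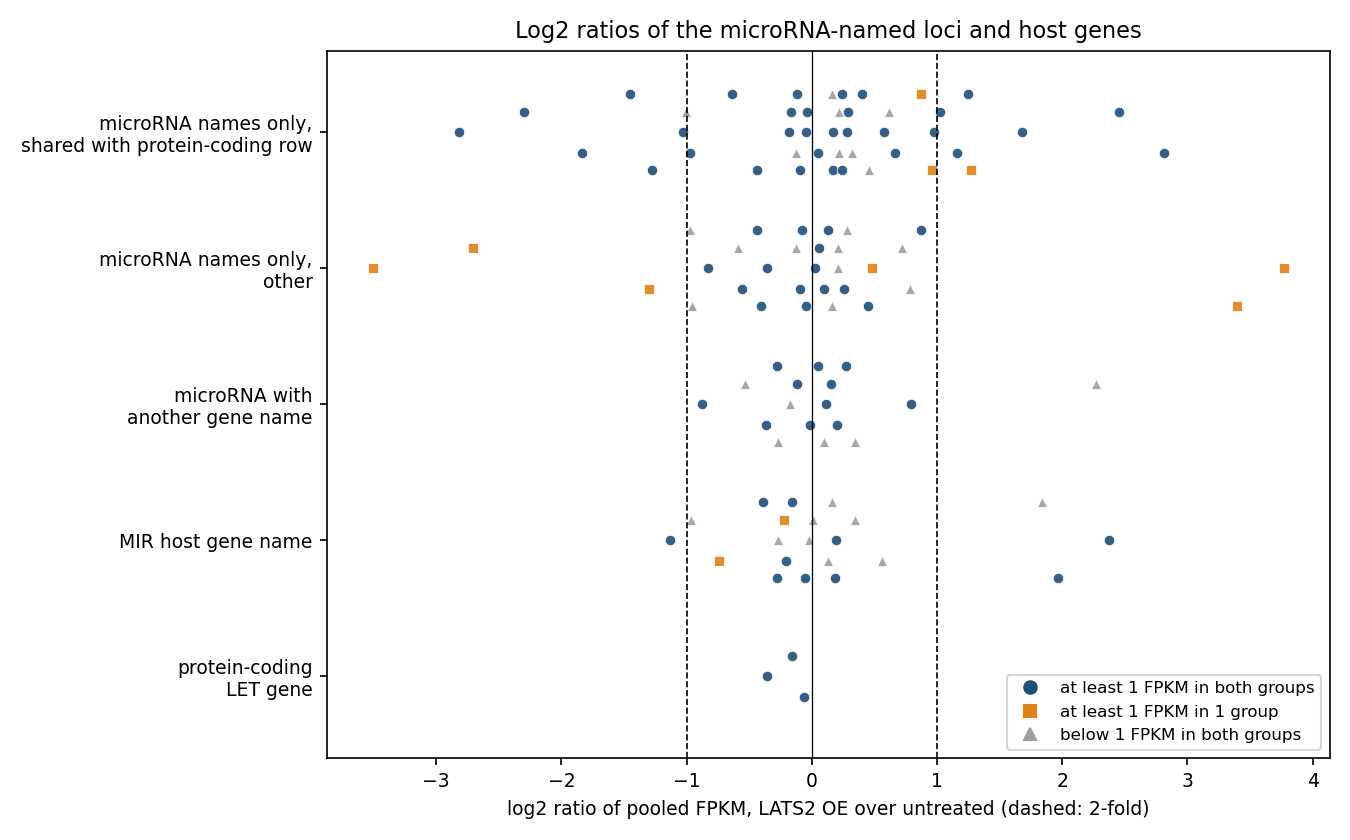
Log2 ratio of pooled FPKM, LATS2 OE over untreated, for each of the 115 loci (1 point each), by kind of row, with the marker showing the level class; dashed lines mark 2-fold. Rows with only microRNA names spread between -3.51 and 3.77, while 15 of the 21 host genes stayed within 1.5-fold.

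The host genes are long non-coding RNAs named for the microRNA hairpins that their transcripts carry. MIRLET7DHG departs from this in GENCODE, where the let-7d hairpin lies on the opposite strand, in an exon of MIRLET7A1HG. Of the 21 rows with a host gene name, 3 were at least 2-fold higher in LATS2 OE, 1 was at least 2-fold lower, and 15 stayed within 1.5-fold. MIR210HG, the host of miR-210, which is best known as a microRNA induced by hypoxia-inducible factors, read 7.15 or 71.5 FPKM in LATS2 OE, against 1.83 or 18.3 FPKM in untreated. Its log2 ratio was 1.97, a 3.91-fold higher value, and would be -1.36 if the decimal places were set to the ratio nearest 1 without the log2 key. The row covered 2801 bases (hg19 chr11:565657-568457), was alone in its interval, and held the hairpin in an intron of the host gene (GENCODE 44 mapped to GRCh37).

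The row of MIRLET7BHG, the host of let-7a-3 and let-7b, read 13.3 or 133 FPKM in LATS2 OE, against 2.57 or 25.7 FPKM in untreated, a log2 ratio of 2.38 (-0.95 without the key). The let-7 microRNAs are widely expressed and known for holding back growth-promoting genes such as those of the RAS family. The row joined MIRLET7BHG with MIR4763 and PRR34-AS1, so the difference cannot be assigned to one of these transcripts. Its interval of 63470 bases (hg19 chr22:46446339-46509808) was shared with other rows. Both let-7 hairpins lie in exons of MIRLET7BHG. MIR181A1HG, the host of miR-181a-1 and miR-181b-1, was the 1 low host past 2-fold in the same direction. It was at 0.310 FPKM in LATS2 OE against 0.0866 FPKM in untreated (log2 ratio 1.84), and its interval too was shared with other rows.

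In the other direction, the row of MIR137HG read 4.27 or 42.7 FPKM in LATS2 OE, against 9.37 or 93.7 FPKM in untreated, a log2 ratio of -1.13. miR-137 is best known from neural development, and its hairpin lies in an exon of the host. MIR17HG, which carries the miR-17-92 cluster of growth-promoting microRNAs and is a known target of MYC, was at 0.889 FPKM in LATS2 OE against 1.48 FPKM in untreated. Its log2 ratio of -0.74 did not reach 2-fold. MIR4500HG was at 0.0178 FPKM in LATS2 OE against 0.0347 FPKM in untreated (-0.96), a level marked in the table as too low to test.

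The other 15 host genes were the ones within 1.5-fold. The lowest of them was the row of MIR424, MIR503 and MIR503HG, whose microRNAs belong to the miR-15/16 group of cell cycle repressors, with a log2 ratio of -0.39. MIR99AHG followed with -0.28, MIRLET7DHG with -0.27, MIR4458HG with -0.22, MIR181A2HG with -0.21 and MIR4435-1HG with -0.16. MIR155HG, whose microRNA is known from immune cells, had -0.06, MIR31HG -0.03 and MIR100HG 0.01. On the higher side were MIR663AHG with 0.13, MIR600HG with 0.16, MIR497HG with 0.19, MIR22HG with 0.20, MIR762HG with 0.35 and MIR133A1HG with 0.56. MIR663AHG was at 0.0055 FPKM in LATS2 OE against 0.0050 FPKM in untreated, MIR133A1HG at 0.0118 FPKM against 0.0080 FPKM, and both were marked as too low to test.

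Promoter sequences (250 bases before to 50 after the RefSeq start, GRCh38.p14) of the higher hosts with 1 FPKM or more were searched on both strands for ACGTG, the core of the hypoxia response element, and for GGAATG, the core bound by the YAP partners of the TEAD family. ACGTG can match both strands at overlapping bases, the motifs share no base in the promoters shown, and matches are in capitals. Of all 35116 promoters, 21.4% held ACGTG and 14.0% held GGAATG. Of the 39 promoters listed for names in the rows, 10 held ACGTG and 8 held GGAATG. The MIR210HG promoter held ACGTG and no GGAATG, and the MIRLET7BHG promoter held each of them. The promoter of PRR34-AS1, which shares the MIRLET7BHG row, held neither, and that of MIR137HG, a host lower in LATS2 OE, held ACGTG. Such a match describes letters and does not show binding.
MIR210HG, chr11:568408-568707, minus strand: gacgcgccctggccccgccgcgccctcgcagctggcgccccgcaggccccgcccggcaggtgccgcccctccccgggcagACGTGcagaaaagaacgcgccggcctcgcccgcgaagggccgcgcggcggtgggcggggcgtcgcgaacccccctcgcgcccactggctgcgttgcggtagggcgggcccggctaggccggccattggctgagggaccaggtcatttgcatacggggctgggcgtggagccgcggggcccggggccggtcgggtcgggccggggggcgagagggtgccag
MIRLET7BHG, chr22:46085747-46086046, plus strand: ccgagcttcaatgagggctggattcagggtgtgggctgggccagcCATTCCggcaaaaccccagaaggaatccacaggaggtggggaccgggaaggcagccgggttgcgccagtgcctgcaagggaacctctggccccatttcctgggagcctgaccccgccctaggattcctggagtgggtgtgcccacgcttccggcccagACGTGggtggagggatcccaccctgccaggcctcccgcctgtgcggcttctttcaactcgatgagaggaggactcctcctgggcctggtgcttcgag

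Rows whose microRNAs share a seed lay on different sides of 2-fold for the let-7, miR-181, miR-17 and miR-25 seeds, and near each other for the miR-15/16, miR-99/100 and miR-125 seeds. The let-7 seed GAGGUAG was found in 7 rows, and only that of MIRLET7BHG was past 2-fold, in the direction that rests on the key. The row of SPACA6P with let-7e had a log2 ratio of 0.20, MIR100HG with let-7a-2 had 0.01 and MIR99AHG with let-7c had -0.28. MIRLET7DHG, whose interval holds let-7d on the opposite strand, had -0.27. The other 2 rows with this seed were MIR4458HG at -0.22 and MIR4500HG at -0.96. The miR-181 seed was in MIR181A1HG at 1.84 and in MIR181A2HG at -0.21, which read 3.15, 31.5 or 315 FPKM in LATS2 OE against 3.63, 36.3 or 363 FPKM in untreated. Since MIR181A1HG was below 1 FPKM in both groups, the host with the higher level was the one near no difference.

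The miR-17 seed AAAGUGC and the miR-25 seed AUUGCAC each occurred in the same 2 rows, MIR17HG and the row named MIR25, whose interval also holds the miR-106b hairpin. MIR17HG had a log2 ratio of -0.74. The MIR25 row was at 11.2 FPKM in LATS2 OE against 5.51 FPKM in untreated, a log2 ratio of 1.02. The rows named for these paralogous clusters thus lay on opposite sides. The miR-25 and miR-106b hairpins lie in introns of MCM7, whose row had -0.01, so the ratio of their whole cluster is not known. The miR-15/16 seed AGCAGCA occurred in 3 rows with ratios between -0.39 and 0.19, namely MIR503HG, DLEU2 at -0.12 and MIR497HG. The miR-99/100 seed was in SPACA6P with miR-99b, MIR100HG and MIR99AHG, whose values are given above, and the miR-125 seed was in the first 2 of these.

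**Figure D2:**
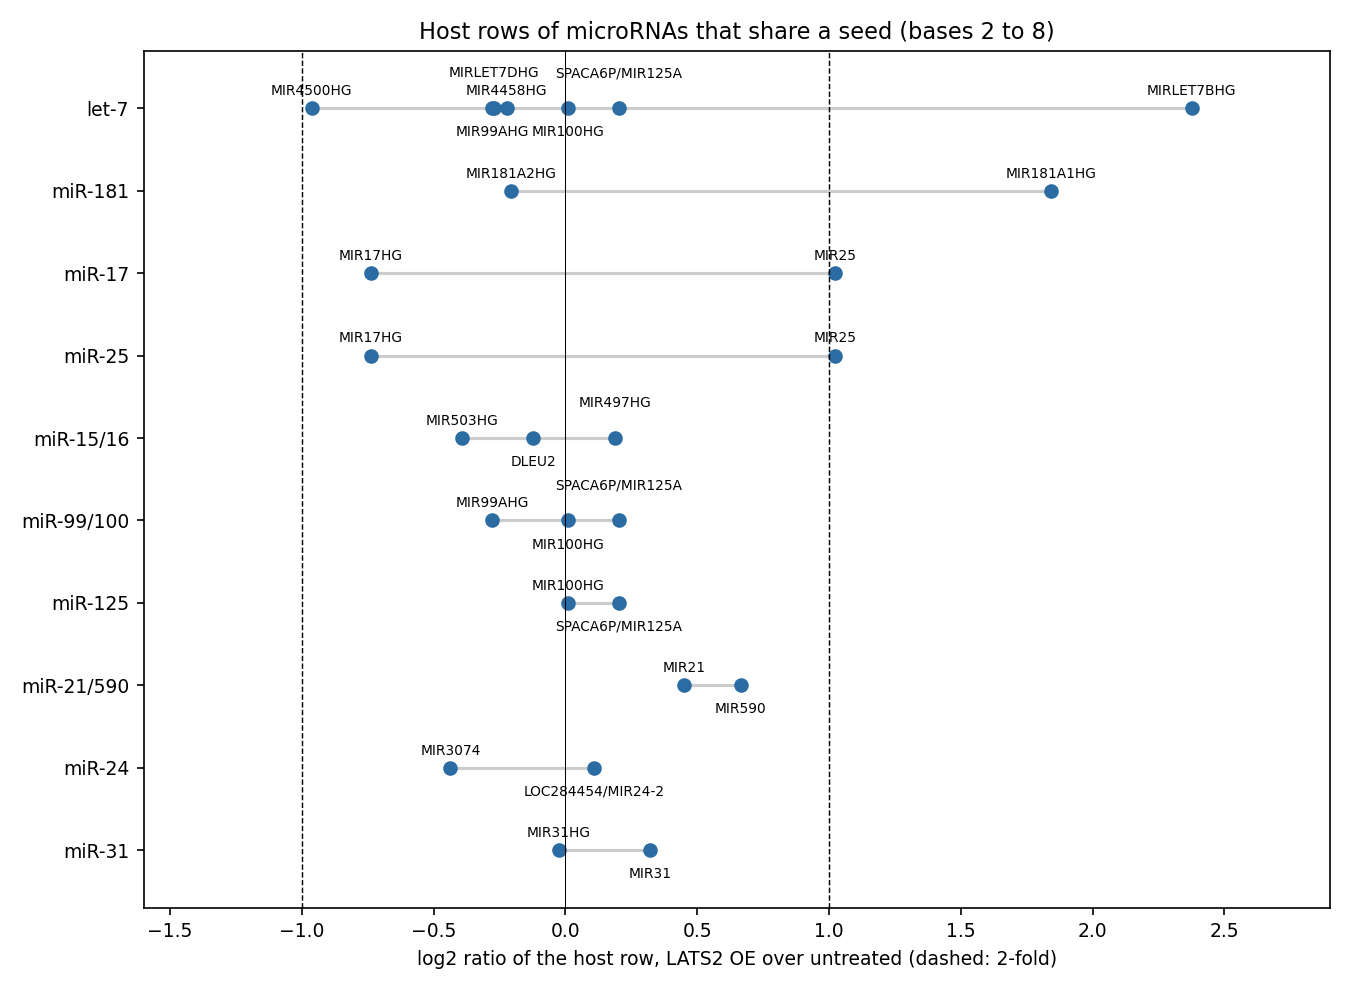
Log2 ratio, LATS2 OE over untreated, of the rows that hold microRNAs with the same seed, 1 line per seed for 10 seeds and 1 point per row. The let-7, miR-181, miR-17 and miR-25 lines reach past 2-fold at 1 row each, and the miR-15/16, miR-99/100 and miR-125 lines stay near 0.

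A group of 31 rows had only microRNA names and no protein-coding gene with the same interval. For 28 of them the hairpin was placed on GRCh37, and in 8 the interval began at the first base of the hairpin and in most of these ran on beyond its end. Of the 31 rows, 2 were at least 2-fold higher in LATS2 OE and 3 at least 2-fold lower, and all 5 had at least 1 FPKM in 1 group only. The 5 are described next, each with the genes beside it.

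MIR4674 was at 4.36 FPKM in LATS2 OE and 0.319 FPKM in untreated, a log2 ratio of 3.77 and the highest of all 115. Its 3572 bases (hg19 chr9:139440625-139444196) began 135 bases beyond the interval of NOTCH1, the Notch receptor gene, whose own log2 ratio was 0.23. In GENCODE the miR-4674 hairpin lies opposite an exon of the non-coding gene NALT1, and the row was not alone in its interval. The library did not mark strand, so RNA of NALT1 cannot be told apart from that of the MIR4674 row there. MIR197 was at 3.90 FPKM in LATS2 OE and 0.370 FPKM in untreated, a log2 ratio of 3.40. Its 788 bases (hg19 chr1:110141515-110142302) lay 3061 bases beyond the interval of GNAI3, a G protein subunit gene, which had a log2 ratio of 0.04. GENCODE places the miR-197 hairpin in a GNAI3 exon. In both cases the neighbouring messenger RNA was close to no difference, while the microRNA rows were 13.7-fold and 10.5-fold higher.

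The row of MIR4421 and MIR6500 was at 0.292 FPKM in LATS2 OE and 3.32 FPKM in untreated, a log2 ratio of -3.51 and the lowest of all 115. It covered 2567 bases (hg19 chr1:51524532-51527098) with no annotated gene on either strand at the hairpins, and lay 40808 bases from C1orf185 (log2 ratio 0.09) and 84223 bases from the cell cycle inhibitor gene CDKN2C (0.11), the named rows on either side. MIR196A2 was at 0.226 FPKM in LATS2 OE and 1.47 FPKM in untreated, a log2 ratio of -2.70. Its 944 bases (hg19 chr12:54385522-54386465) lie in the HOXC cluster of body-patterning genes, 928 bases from HOXC10 and 223 bases from HOXC9. These neighbours had log2 ratios of 0.09 and 0.20, so the row between them differed from both. GENCODE places the hairpin in an intron of HOXC6, and the row of HOXC4, HOXC5 and HOXC6 had a log2 ratio of 0.28.

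MIR940 was at 0.788 FPKM in LATS2 OE and 1.94 FPKM in untreated, a log2 ratio of -1.30. Its row began 335 bases beyond RNPS1, an RNA-binding protein gene, with a log2 ratio of -0.07. GENCODE places the hairpin in an exon of the non-coding gene MIR3677HG, and this row too was not alone in its interval. These 5 rows crossed 1 FPKM between the groups, and each value is a pooled one, so the spread among the 4 samples behind it is unknown.

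**Figure D3:**
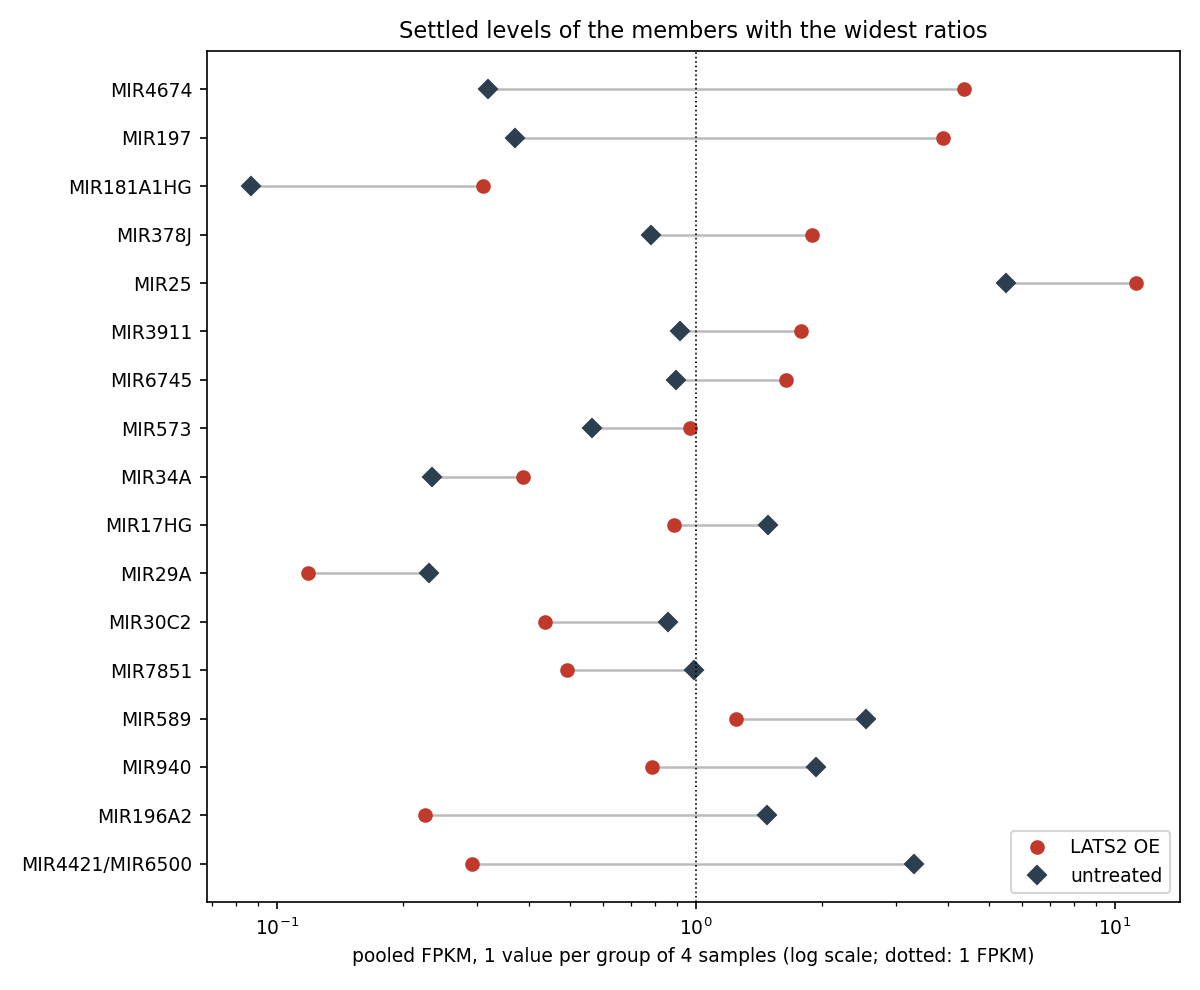
Pooled FPKM on a log axis in LATS2 OE (circles) and untreated podocytes (diamonds), 1 value per group, for the 17 loci with a settled level and an absolute log2 ratio of at least 0.7 that were not marked as too low to test. The ends of the order are MIR4674, at 4.36 FPKM in LATS2 OE against 0.319 FPKM in untreated, and MIR4421/MIR6500, at 0.292 FPKM against 3.32 FPKM.

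Other rows of this group stayed within 2-fold. MIR21, the microRNA of tissue repair and fibrosis, read 3.76, 37.6 or 376 FPKM in LATS2 OE, against 2.75, 27.5 or 275 FPKM in untreated. Its log2 ratio was 0.45, while VMP1, which ends 675 bases before it and whose longer transcripts contain it, had 0.06. MIR34A, whose microRNA restrains the cell cycle, was at 0.386 FPKM in LATS2 OE and 0.234 FPKM in untreated (0.72). MIR146A, which dampens NF-kappaB signalling, was at 1.19 FPKM in LATS2 OE and 0.857 FPKM in untreated (0.48). All 3 were higher in LATS2 OE and short of 2-fold.

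On the lower side, MIR221, a repressor of the cell cycle inhibitor CDKN1B, read 3.34, 33.4 or 334 FPKM in LATS2 OE, against 4.52, 45.2 or 452 FPKM in untreated (log2 ratio -0.44). The row of MIR200A, MIR200B and MIR429, which hold down the mesenchymal factors ZEB1 and ZEB2, had -0.41, MIR138-1 had -0.36 and MIR130A had -0.59. MIR29A, whose microRNA represses collagen genes, was at 0.119 FPKM in LATS2 OE and 0.230 FPKM in untreated, a log2 ratio of -0.95. A row of the non-coding RNA LINC-PINT with the same interval had -0.49. MIR30C2 was at 0.437 FPKM in LATS2 OE and 0.857 FPKM in untreated (-0.97), close to LINC00472, the non-coding gene it lies in, at -0.90.

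MIR659, MIR573, MIR3939 and MIR365A were also within 2-fold. MIR659 had a log2 ratio of 0.87, and ANKRD54, in an intron of which its hairpin lies, had 0.73, so the row and the neighbouring gene lay on the same side. MIR573 had 0.78, at 0.970 FPKM in LATS2 OE against 0.564 FPKM in untreated, while DHX15 beside it had -0.06. MIR3939 had -0.83.

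A further 43 rows with only microRNA names had the same interval as 1 or more protein-coding rows. Of these, 7 were at least 2-fold higher in LATS2 OE and 7 at least 2-fold lower. Of the 74 protein-coding rows in those intervals, 1 was at least 2-fold higher and none at least 2-fold lower. In 36 of the 43, the microRNA row had a larger log2 ratio, without its sign, than every protein-coding row of its interval. The median size of the log2 ratio was 0.57 for the microRNA rows and 0.06 for the protein-coding rows. None of the 20 protein-coding rows beside the 14 microRNA rows past 2-fold was past 2-fold.

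The higher rows of this kind began with MIR7-1, which read 8.33, 83.3 or 833 FPKM in LATS2 OE, against 1.18, 11.8 or 118 FPKM in untreated, a log2 ratio of 2.82. The protein-coding row of the interval, HNRNPK, an RNA-binding protein gene that hosts miR-7-1, had -0.06. MIR3653 had 2.45 beside AP1B1 at -0.04, MIR6807 had 1.68 beside TRIM28 at -0.01, and MIR378J had 1.27 beside DDX52 at -0.06. MIR4258 had 1.25 beside CKS1B at 0.00, and MIR3665 had 1.16 beside SLAIN1 at 0.60. MIR25, with 1.02, lies in an intron of MCM7, a DNA replication helicase gene, which had -0.01, and the interval's other protein-coding rows, AP4M1, CNPY4 and TAF6, had 0.04, 0.02 and 0.06. Without the log2 key the ratios of MIR7-1, MIR3653 and MIR6807 would be -0.51, -0.87 and -1.64, so their place in this order rests on it. MIR762, MIR3911 and MIR6745 came just short of 2-fold, with 0.98, 0.96 and 0.88.

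The lower rows of this kind began with MIR1260B, which read 4.25 or 42.5 FPKM in LATS2 OE, against 30.0 or 299.9 FPKM in untreated, a log2 ratio of -2.82. MAML2, a Notch coactivator gene on the strand opposite to the hairpin, had -0.27. MIR1254-1 had -2.30 beside CCAR1 at -0.07, MIR135A1 had -1.84 beside 2 rows of GLYCTK at -0.25 and -0.22, and MIR641 had -1.45 beside the kinase gene AKT2 at 0.02. MIR6892 had -1.28 beside ZYX, the gene of the focal adhesion protein zyxin, at 0.11 and EPHA1 at 0.83, MIR589 had -1.03 beside FBXL18 at 0.05, and MIR7851 had -1.01 beside PPHLN1 at -0.03 and ZCRB1 at -0.05. MIR3936 had -0.97 and MIR4691 had -0.64. Without the key MIR1260B, MIR1254-1 and MIR135A1 would be at 0.50, 1.02 and 1.49. In these intervals the microRNA row and the messenger RNA row had different ratios.

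Where a hairpin of these rows could be placed, its length was 70 to 164 bases (median 90). Of 31 placed hairpins, 16 lie in an intron and 3 in an exon of a protein-coding gene on the same strand, and 12 lie elsewhere. FPKM divides by feature length, and the part of this short length in the ratios was not tested. The library kit did not mark strand, so RNA from opposite strands, as at MIR1260B and MAML2, cannot be told apart.

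**Figure D4:**
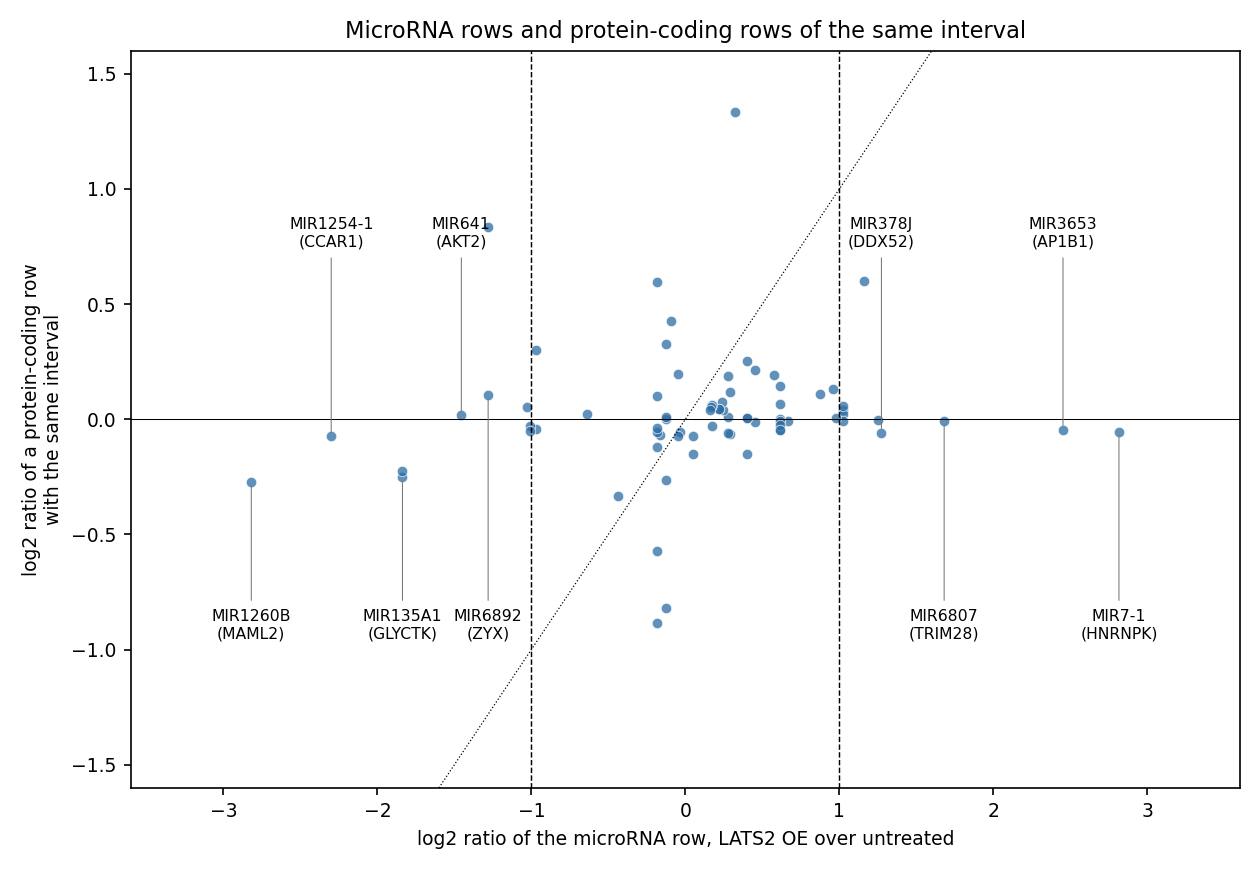
Log2 ratio of each of 43 microRNA rows (x axis) against that of every protein-coding row with the same interval (y axis, 75 pairs), both LATS2 OE over untreated; the dotted line marks equal ratios and dashed lines mark 2-fold for the microRNA row. Points spread along the x axis between -2.82 and 2.82 and lie mostly near 0 on the y axis.

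In 17 rows a microRNA shared the row with another named gene, and 16 of them were within 2-fold. The exception was LINC00461 with MIR9-2, a neural non-coding RNA, at 0.00753 FPKM in LATS2 OE and 0.00156 FPKM in untreated, a log2 ratio of 2.27 at a level marked in the table as too low to test. DLEU2, the host of miR-15a and miR-16-1, had -0.12, MEG3, an imprinted non-coding RNA, had 0.09, SPACA6P with miR-125a had 0.20, and LOC284454 with MIR24-2, the miR-23a/27a/24-2 host, had 0.11. PVT1 with MIR1204, a non-coding neighbour of MYC, had -0.37. Rows that joined a microRNA with a small nucleolar or Cajal body RNA were SNORA34 with MIR1291 at 0.79, SNORA84 with MIR3651 at -0.28 and SCARNA16 with MIR6516 at -0.88. Their microRNA names refer to fragments of these structured RNAs.

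MIR31 and MIR31HG had the same interval and gave a direct comparison of a hairpin row with its host. MIR31 was at 0.761 FPKM in LATS2 OE and 0.610 FPKM in untreated (log2 ratio 0.32), and MIR31HG was at 0.675 FPKM in LATS2 OE and 0.687 FPKM in untreated (-0.03). The 2 rows were close to each other in level and within 1.5-fold in ratio. MIR762 and its host MIR762HG had 0.98 and 0.35. IFNE, an interferon gene of the MIR31 interval, was the 1 protein-coding row past 2-fold, with a log2 ratio of 1.33. It was below 1 FPKM in both groups, a level at which 15.5% of all loci were past 2-fold.

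MIR6723 had the highest level, at 30326 FPKM in LATS2 OE and 32029 FPKM in untreated (log2 ratio -0.08), while no other of the 115 loci could exceed 972 FPKM in either group. Its 89 bases (hg19 chr1:567705-567793) lie in a nuclear copy of a mitochondrial gene, and 88 of them (98.9%) match the mitochondrial genome of GRCh37, whose mitochondrial sequence is not the one used in hg19. Reads of mitochondrial messenger RNA and of this copy cannot be told apart at these bases. MIR4477A and MIR4477B lie on opposite strands of the same sequence and had 0.16 and 0.13, and MIR4734 stood in 2 rows with 0.22 in each.

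Genes that make microRNAs or act with them were compared from a list of 46, of which 45 were above 0 in both groups. None was past 2-fold, and 3 were at least 1.5-fold lower in LATS2 OE, against 6.61% of all loci and 1.85% of those with 1 FPKM or more in both groups. The list was written with earlier results of these data known, so setting its counts beside such shares is not a test. No gene of the list was at least 1.5-fold higher, against 8.67% of all loci. Of the 12212 loci with 1 FPKM or more in both groups, 161 were at least 1.5-fold higher. All 45 genes but TNRC6C and LIN28A were at that level. The median log2 ratio was -0.01. DGCR8, the partner of Drosha that binds the primary hairpin, had a log2 ratio of -0.84, whereas DROSHA had -0.06. AJUBA had -0.96 and WTIP -0.74. Both are LIM proteins of the Ajuba family, which take part in silencing by microRNAs and are also known to bind LATS kinases, and LIMD1, the other family member on the list, had -0.01.

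The remaining steps of the pathway differed little. Exportin 5 (XPO5), which carries the hairpin out of the nucleus, had -0.14, and DICER1 had -0.08. The Dicer partners TARBP2 and PRKRA had 0.05 and 0.02. The Argonaute genes AGO1, AGO2, AGO3 and AGO4 had -0.06, -0.09, 0.19 and 0.17. LIN28A, which blocks let-7 maturation, was at 0.00648 FPKM in LATS2 OE and 0.00864 FPKM in untreated, and LIN28B was listed at 0 in LATS2 OE and at 0.00133 FPKM in untreated.

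**Figure D5:**
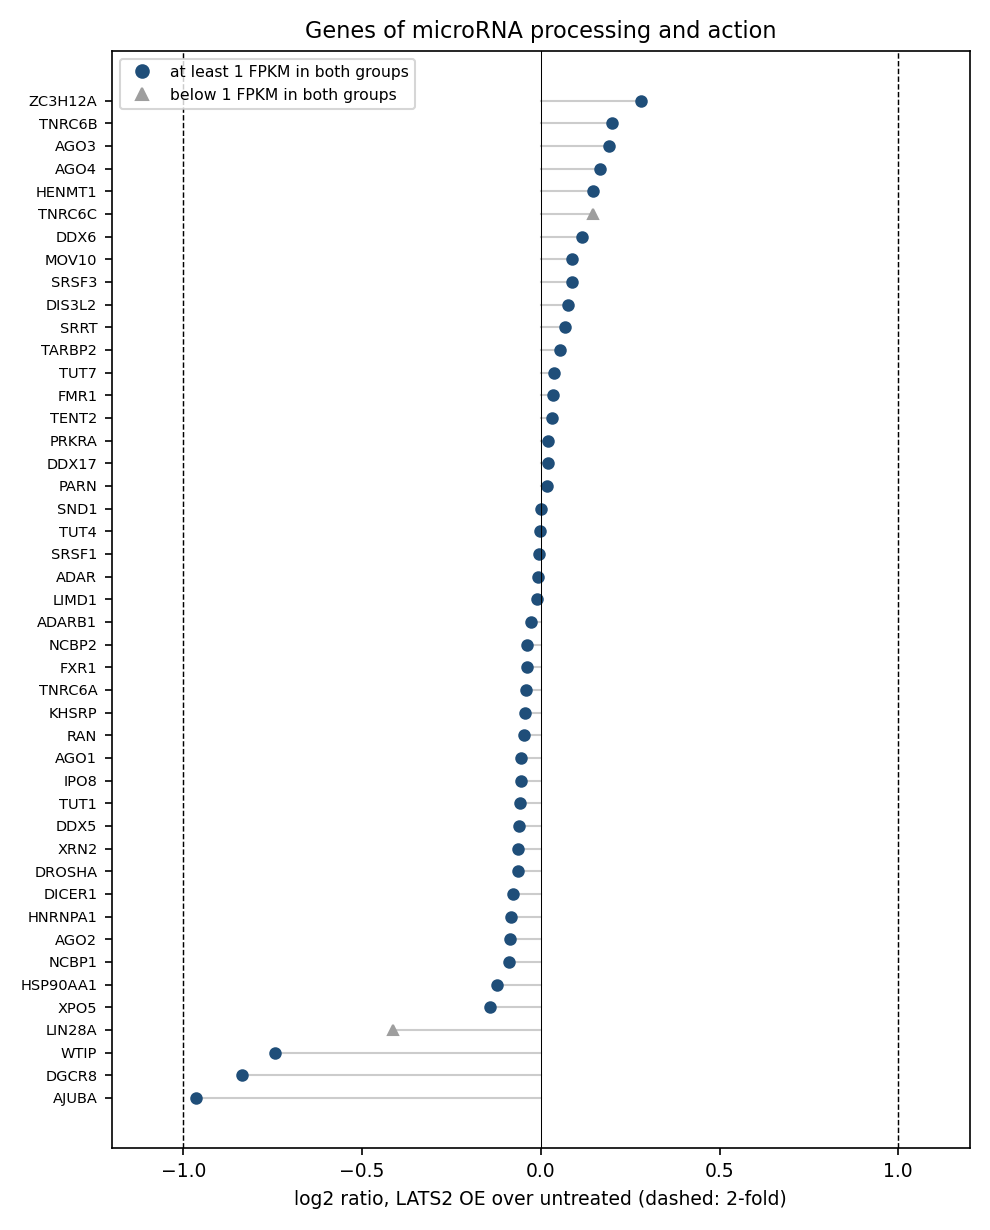
Log2 ratio, LATS2 OE over untreated, of the 45 genes of microRNA processing and action that were above 0 in both groups, from highest at the top to lowest at the bottom; dashed lines mark 2-fold. AJUBA at -0.96, DGCR8 at -0.84 and WTIP at -0.74 stand apart from the others, which lie between -0.41 and 0.28.

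At the 2-fold threshold, the 3 loci just inside it were MIR7851 at -1.01, MIR25 at 1.02 and MIR589 at -1.03, and the 3 just outside were MIR762 at 0.98, MIR30C2 at -0.97 and MIR3936 at -0.97. Among loci below 1 FPKM in both groups, the row named MIR1268A, whose interval has 7 protein-coding rows, had 0.61. The row is on chromosome 9, whereas RefSeq lists MIR1268A on chromosome 15, and no hairpin of that name was placed in the interval.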

How the data were processed

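RNA sequencing covered 8 samples of 1 inducible AB8/13 podocyte line, 4 LATS2 OE and 4 untreated, made from poly(A)-selected RNA with a kit that does not mark strand. Per the labels and the study's methods, the authors used Trimmomatic 0.33 for trimming, TopHat with hg19 for alignment and programs of the Cufflinks package for FPKM. For the last 2 tools the version, like the annotation, is not given in the sources used. The authors deposited 1 table with a pooled FPKM value per group for 29004 loci. Its fold change, test statistic, p and q columns hold the authors' own comparison, and none of these values is reported.

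Values of at least 1 with 3 or more decimals had lost their decimal point. The deposited log2 column served only as a key to the power of 10 between the groups (tolerance 0.002). This gave 1 ratio for 20626 of the 20636 loci above 0 in both groups, and 2000 of 2000 ratios in simulated data. The simulated points were displaced by the rule that the recovery assumes, so this cannot show that the deposited points were displaced in that way. Levels were settled for 49 of the 115 loci.

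The log2 ratio is that of LATS2 OE to untreated, without a pseudocount. A locus was called at 2-fold, since pooled values allow no SD and no test, and the depth per sample is unknown. Alternatives were a 1.5-fold threshold, level filters, a pseudocount of 0.1 FPKM, narrower name rules and decimal places set without the key. Named loci were every host gene, the 15 highest and 15 lowest ratios with 1 FPKM or more in a group, the 5 highest and 5 lowest below 1 FPKM, listed microRNA families and the 6 loci nearest the threshold. Loci named outside these rules were chosen after their values were seen, such as MEG3, PVT1, SNORA34, SNORA84, MIR6723, MIR4477A, MIR4477B and MIR4734. Hairpins from RefSeq were placed on GRCh37 by exact match and annotated with GENCODE 44 mapped to GRCh37. Coordinates of loci are hg19 and count from 1. Python 3.11.15 and matplotlib 3.10.9 were used. The members and gene lists were chosen with earlier results of these data known. Some marker genes are not reported here.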

Additional observations from a re-analysis of the deposited data

Results flagged for a closer look

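Outside the comparison, 22 microRNA-named rows were above 0 in LATS2 OE and listed at 0 in untreated podocytes. This was 1.21% of the 1824 rows with such a name, against 2.53% of all loci, and 30 rows (1.64%, against 2.32% of all loci) had the opposite pattern. Of the 22, 16 were marked in the table as too low to test and 16 had the interval of a protein-coding gene. MIR222, a partner of MIR221, read 1.47, 14.7 or 147 FPKM in LATS2 OE and 0 in untreated in a row of its hairpin alone, and was marked as too low to test. The row of MIR143 and MIR143HG, known from smooth muscle, was at 0.00512 FPKM in LATS2 OE and at 0 in untreated. No fold is given against a listed 0.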

How the results depend on the processing

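The counts past 2-fold (13 higher, 11 lower) stayed within 1.5 times when loci below 1 FPKM in both groups, LET genes or rows with other names were left out, with a pseudocount of 0.1 FPKM, and with decimal places set to the ratio nearest 1. With a 1.5-fold threshold the counts were 22 higher and 20 lower in LATS2 OE, and 3 processing genes were called in place of 0. With at least 1 FPKM in both groups they were 8 and 7 of 71 loci. Without intervals shared with a protein-coding row, an alternative chosen after seeing the data, they were 6 and 4 of 59 loci and the median log2 ratio was -0.056. With decimal places set to the ratio nearest 1, applied to single loci after seeing the data, 8 loci past 2-fold changed sign. They were MIR7-1 (-0.51), MIR3653 (-0.87), the MIRLET7BHG row (-0.95), MIR210HG (-1.36), MIR6807 (-1.64), MIR135A1 (1.49), MIR1254-1 (1.02) and MIR1260B (0.50), so their directions rest on the key in the log2 column. With the pseudocount, 3 single loci fell below 2-fold and 112 kept their side. No paired analysis was possible because the table holds 1 pooled value per group, and leaving out a sample could not be run for the same reason. The sequencing depth per sample is unknown, so the counting error of low FPKM values cannot be given.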

Other observations

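Of the 30 microRNA-named rows above 0 only in untreated podocytes (1.64% of such rows, against 2.32% of all loci), 21 were marked as too low to test and 22 had the interval of a protein-coding gene. Among the 30, MIR29C was at 0 in LATS2 OE against 6.59, 65.9 or 659 FPKM in untreated, and MIR212 was at 0 in LATS2 OE against 3.28, 32.8 or 328 FPKM in untreated, each in a row of the hairpin alone. MIR205HG, the host of an epithelial microRNA, was at 0 in LATS2 OE and at 0.00783 FPKM in untreated.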
